A study of Sus scrofa with 8 samples.

Results

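The genes described here code for the large families of molecular chaperones, HSP70 with the related HSP110, HSP90, the J-domain proteins (DNAJ) and the chaperonins, together with the heat shock factors HSF1 and HSF2. They were chosen by name: symbols that start with HSPA, HSP90, HSPD, HSPE, HSPH, DNAJ or CCT, and TCP1, HYOU1, HSF1 and HSF2. Of 18975 genes listed, 64 had such a name, and 57 of these reached at least 1 FPKM (fragments for each kilobase of a transcript, in a library of 1000000 mapped fragments) in at least 2 libraries, the filter that 11913 genes passed. The 57 genes comprised 5 of the HSP70 type, 3 of the HSP110 type, 2 of HSP90, HSPD1 with its partner HSPE1, 8 subunits of the chaperonin CCT, 4 DNAJA, 8 DNAJB and 23 DNAJC genes, and 2 heat shock factors.

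The study sequenced heart RNA of male Tibetan and Yorkshire pigs aged 6 months. Tibetan pigs came from 3000 m (TH) and 100 m (TL), and Yorkshire pigs from 3000 m (YH) and 100 m (YL). Each group had 2 libraries, and each library held a pool of RNA from 4 pigs, so its spread is one between pools. The region of the heart that was sampled is not given in the sources used here, the labels name no other treatment, and the site and its altitude cannot be told apart.

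Chaperones bind proteins that are not yet folded or have lost their fold. HSP70 proteins hold short stretches of such chains in cycles of ATP use, J-domain proteins bring them their clients and start the cycle, and HSP110 proteins renew the nucleotide. HSP90 acts later on kinases, receptors and the myosin motor, and the barrel-shaped chaperonins enclose whole proteins, CCT those of the cytosol such as actin and tubulin, and HSPD1 with HSPE1 those of the mitochondrion. HSF1 is the main activator of their genes after heat or protein damage, while the chaperones of the endoplasmic reticulum (ER) follow the unfolded protein response. Heart muscle depends on them for the assembly of its contractile fibers.

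Between 15687000 and 26723000 reads per library fell on genes, and between 88899 and 137475 on the 57 chaperone genes, with medians of 664 to 1150 reads per gene. Libraries differed in ways that touch these values. Mitochondrially encoded genes took 57.7% (YH2) to 87.6% (TH1) of the FPKM sum. YL2 held RNA of kidney genes: 18 of 18 entries of kidney markers in the table, with NPHS1 entered more than once, were highest there, and their sum was 9201 FPKM against 0.832 to 17.5 in the other libraries. The 10 cardiomyocyte markers in the table were expressed in every library, from a sum of 16951 FPKM in YL2 to 45039 in TH1. Both TH libraries exceeded the other 6 in 4 of 5 atrial markers, with sums of 11574 and 8640 FPKM against 453 to 2886, and the sum of 5 blood markers, most of it HBB, was 1739 and 890 FPKM in TH against 301 to 658, with 3 of the 5 highest in both TH libraries. The sum of 6 leukocyte markers was 25.1 and 35.5 FPKM in YH1 and YH2 against 11.6 to 18.8 in the other libraries. The part of these differences in the results given here was not tested. In such bulk tissue, fewer cells of a type and less RNA per cell cannot be told apart.

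The chaperones were abundant in every heart library. The median of their mean levels was 15.7 FPKM, against 5.86 FPKM over all tested genes, 37 of the 57 averaged at least 10 FPKM and 6 at least 100. HSPE1 and HSP90AA1 led the order with 309 to 851 and 232 to 673 FPKM, and HSPA9, HSP90B1, HSPD1 and HSPA5 followed with 72.8 to 161 FPKM. Levels of these last 4 overlapped between libraries, so their order is not fixed by these data. At the low end, 12 genes averaged under 5 FPKM, with DNAJC27, HSPA12A, DNAJC28 and DNAJC16 (named after its values were seen) under 2 FPKM in the mean. The 7 genes that did not pass the filter were CCT6B, CCT8L2, DNAJB6, DNAJB8, DNAJB13, DNAJC6 and HSPA4L, with no more than 2.06 FPKM in any library.

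**Figure D1:**
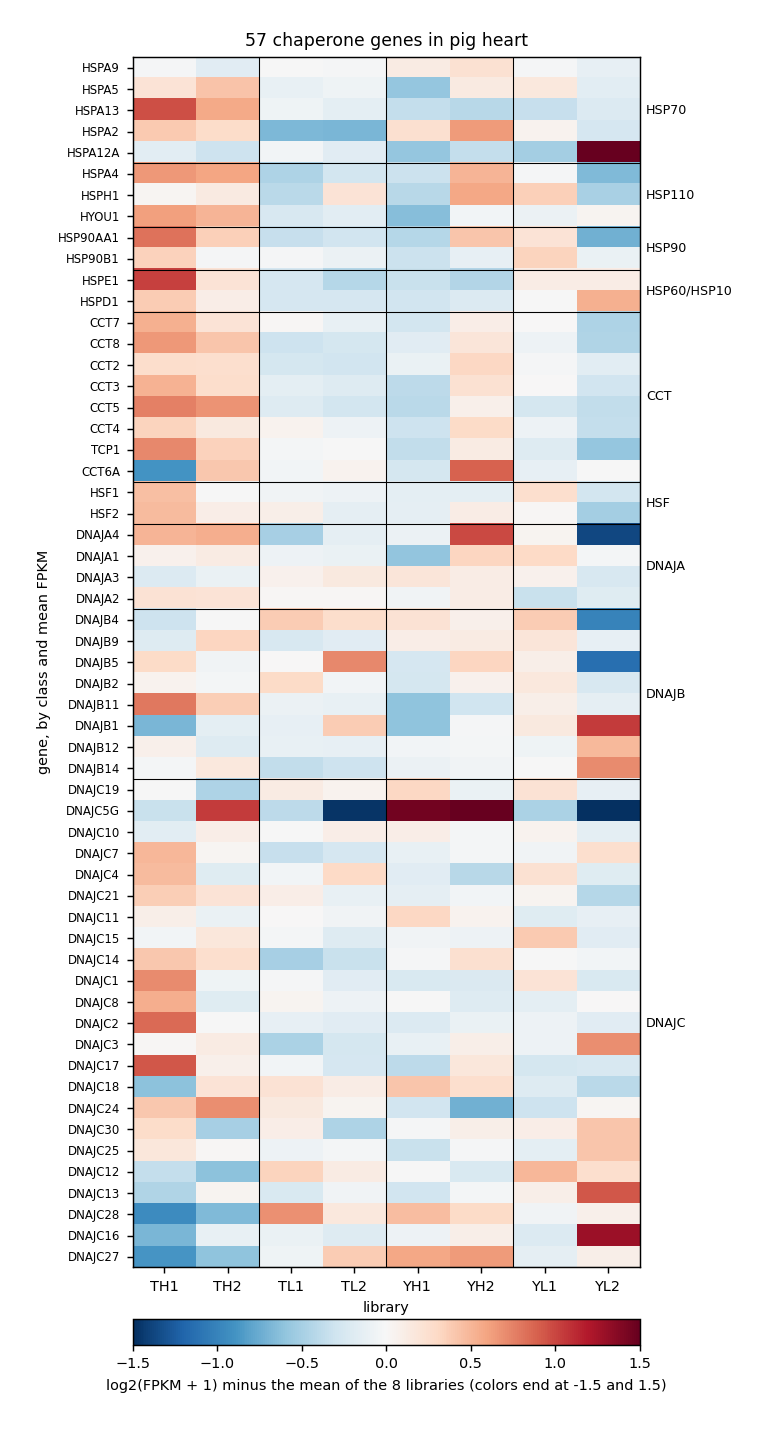
Heat map of the 57 genes (vertical axis, by class and mean FPKM) in the 8 libraries (horizontal axis), with colors for log2(FPKM + 1) minus the gene's mean over the libraries. Most HSP110 and CCT genes are red in TH1 and TH2 on FPKM as deposited, while with equal FPKM sums the CCT median in TH vs. YH was -0.49 beside a median of -0.50 over all tested genes, and HSPA12A is dark red in YL2.

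No chaperone passed the threshold in any comparison. With limma on log2(FPKM + 1), and with a log2 fold change over 1 and an adjusted p under 0.01 asked of a gene, 0 of 57 were called in TH vs. YH, in which 0.0336% of all tested genes were called, in TL vs. YL (0.00839%), in TH vs. TL (0.0504%) and in YH vs. YL (0%). The count was also 0 for the breed average of both altitudes (0.0504%), for the altitude average of both breeds (0.0336%) and for the interaction (0.0336%), which takes YH vs. YL away from TH vs. TL. At an unadjusted p under 0.05 the members numbered 9 in TH vs. YH (15.8%, against 16.2% of all tested genes), 2 in TL vs. YL (3.51%, against 8.94%), 14 in TH vs. TL (24.6%, against 11.3%) and 3 in YH vs. YL (5.26%, against 5.97%). They numbered 6 in the breed average (10.5%, against 13.5%), 11 in the altitude average (19.3%, against 7.22%) and 9 in the interaction (15.8%, against 10.9%). These counts moved with the scaling and with single libraries. With equal FPKM sums, a scaling taken up again with the levels, the 14 of TH vs. TL became 0 (against 2.46% of all tested genes), the 9 of TH vs. YH 3 (7.17%), the 6 of the breed average 3 (8.35%), the 11 of the altitude average 2 (3.11%) and the 9 of the interaction 1 (3.40%). With equal sums outside the mitochondrial genome they became 1 (2.99%), 2 (4.42%), 0 (4.05%), 2 (2.15%) and 1 (3.07%). Leaving out single libraries gave 5 (without TL1, 4.75%) to 16 (without TH2, 22.9%) in TH vs. TL, and 5 (without YH1, 7.33%) to 18 (without TH2, 29.2%) in TH vs. YH. It gave 4 (without YH2, 3.29%) to 14 (without YL1, 21.6%) in the altitude average, and 4 (without TL2, 5.41%) to 17 (without YL1, 24.9%) in the interaction. Without YL1, which leaves the library with kidney RNA alone, the count was 9 in TL vs. YL (25.5%), 13 in YH vs. YL (25.3%) and 14 in the breed average (25.8%). At a log2 fold change over 1 with an unadjusted p under 0.01, limma gave 5 in TH vs. YH (8.77%, against 4.06% of all tested genes), 2 in TH vs. TL (3.51%, against 2.57%), 1 in YH vs. YL (against 0.839%), 1 in the altitude average (against 0.806%) and 2 in the interaction (against 2.85%), and 0 in TL vs. YL (against 2.03%) and the breed average (against 1.91%). On simulated data of the same size as TH vs. YH, the fit called 0% of 200 genes with a true log2 fold change of 1, 20.5% at 2 and 68% at 3, so changes of the size seen here were mostly below what 2 libraries per group can call.

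The levels themselves differed most for TH. In TH vs. TL, 32 chaperones had both TH libraries above both TL libraries (56.1%, against 24% of all tested genes) and 7 had both below (against 24.5%). TH vs. YH gave 25 above (43.9%, against 25.2%) and 9 below (against 27.3%). Of the 37 chaperones that averaged at least 10 FPKM, 23 lay above and 4 below in TH vs. TL (against 30% and 23.9% of tested genes at that level). For these 37, TH vs. YH gave 18 above and 4 below (against 31.3% and 24.8%). Of all 57, the groups at 100 m gave 8 above and 13 below in TL vs. YL (against 23.8% and 17.8%), and the Yorkshire groups 9 above and 10 below in YH vs. YL (against 21.9% and 14.4%). Without YL2, the library with kidney RNA, these became 15 and 28 in TL vs. YL (against 45.7% and 35.5%) and 11 and 20 in YH vs. YL (against 43.6% and 31.4%). With median-ratio factors TL vs. YL gave 4 above and 19 below (against 19.7% and 19.4%), and without YL2 as well 18 and 26 (against 50.4% and 31.1%). The counts for TH depended on the scale of the libraries. With each library scaled to an equal FPKM sum, a sum that mitochondrially encoded genes dominate, the median log2 fold change of all tested genes shifted to -0.50 in TH vs. YH and -0.27 in TH vs. TL, and 0 chaperones lay above in either comparison (against 1.15% and 2.05% of all tested genes). On FPKM as deposited the median log2 fold change of the chaperones was 0.22 in TH vs. YH and 0.28 in TH vs. TL, against -0.03 and -0.02 for all tested genes. The 0.22 was 0.099 without YH1 and 0.36 without YH2, against -0.06 and 0 for all tested genes. Among genes that averaged at least 10 FPKM, the median of the chaperones was 0.22 in TH vs. YH and 0.29 in TH vs. TL. The medians of all such genes were 0.08 and 0.05. By sign alone, 38 of 57 were higher in TH vs. YH (against 47.5% of all tested genes), 41 in TH vs. TL (against 48%), 26 in TL vs. YL (against 51.6%) and 30 in YH vs. YL (against 54%), also on FPKM as deposited. With equal FPKM sums their median was -0.53 and -0.21, against the -0.50 and -0.27 of all genes.

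On FPKM as deposited the difference was larger in the classes other than DNAJ that the naming rule took in. Of 5 related genes outside DNAJ that the table lists under another name or none and that are therefore no members, 3 had log2 fold changes below 0. These were HSPA8, at -0.87 in TH vs. YH and -0.85 in TH vs. TL, HSPA1L at -0.57 and -0.38, and HSPA12B at -0.21 and -0.12. HSP90AB1 was at 0.36 and 0.54, and HSPA14 at 0.19 and 0.21, with limma adjusted p of 0.449 to 0.939 over the 5 genes. For the 22 genes outside the DNAJ classes the median log2 fold change was 0.46 in TH vs. YH and 0.51 in TH vs. TL, with 19 of 22 higher in TH in each. The 35 DNAJ genes had medians of 0.08 and 0.15, with 19 and 22 of 35 higher. Class medians in TH vs. YH ranged from 0.74 for HSPD1 and HSPE1 and 0.53 for HSP110 to 0.03 for DNAJB. With equal FPKM sums the medians of HSPD1 and HSPE1 and of HSP110 were -0.23 and -0.40, which is 0.27 and 0.10 above the -0.50 of all tested genes, against 0.77 and 0.56 above it on FPKM as deposited. In TL vs. YL the 22 genes had a median of -0.03 with 8 of 22 higher, and in YH vs. YL 0.15 with 14 of 22 higher.

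**Figure D2:**
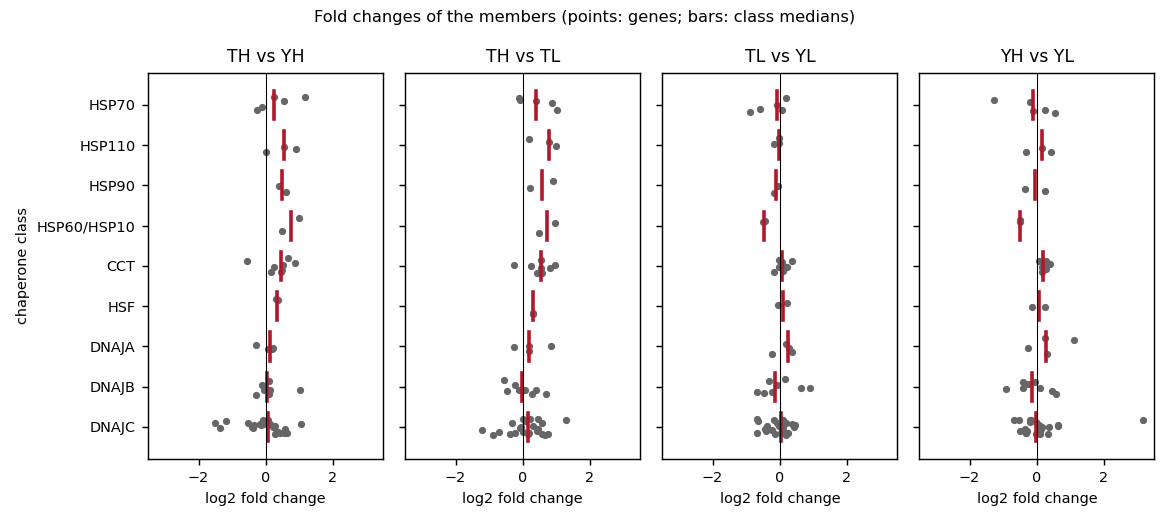
Log2 fold changes on the log2(FPKM + 1) scale (horizontal axis) of the 57 genes by class (vertical axis) in the 4 pairwise comparisons, with a point per gene and a red bar at the class median. The bars of HSP110, HSP90, HSPD1 with HSPE1, and CCT lie between 0.46 and 0.77 in both comparisons with TH on FPKM as deposited; with equal FPKM sums all 4 were below 0 in TH vs. YH, and those of HSP90 and CCT in TH vs. TL, where the medians of all tested genes were -0.50 and -0.27.

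Among the chaperones of the ER lumen, HSPA13 (ENSSSCG00000012007, chromosome 13, 189549388 to 189561047 on Sscrofa10.2), a microsomal HSP70 without a substrate domain, was at 11.7 and 8.62 FPKM in TH1 and TH2, 5.21 and 4.89 in TL1 and TL2, 4.05 and 3.89 in YH1 and YH2, and 4.12 and 4.63 in YL1 and YL2. Both TH libraries lay above all others, and the other 6 spanned a narrow range. Its log2 fold change was 1.15 (SE 0.21) in TH vs. YH, with a limma adjusted p of 0.0960 that ranged from 0.0419 to 1 over the alternatives, and 0.87 (SE 0.21, adjusted p 0.246) in TH vs. TL. It kept its direction under the alternatives, with a lowest log2 fold change of 0.25 in each comparison, at equal FPKM sums, and a highest of 1.78 in TH vs. YH and 1.13 in TH vs. TL on the log2 scale of scaled reads.

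HYOU1 (ENSSSCG00000015106, chromosome 9, 51300011 to 51312199), the HSP110-type exchange factor of the ER, was at 16.5 and 15.2 FPKM in TH1 and TH2, 8.59 and 9.17 in TL1 and TL2, 6.33 and 10.1 in YH1 and YH2, and 9.70 and 10.7 in YL1 and YL2. The lower TH library was thus above the highest of the other 6. The log2 fold change was 0.90 (SE 0.24, limma adjusted p 0.177) in TH vs. YH and 0.77 (SE 0.24, adjusted p 0.320) in TH vs. TL, and with equal FPKM sums it was 0.0058 and 0.18. DNAJB11 (ENSSSCG00000011798, chromosome 13, 133782312 to 133801505), a J-domain partner of HSPA5, was at 24.3 and 17.8 FPKM in TH1 and TH2, 12.7 and 12.5 in TL1 and TL2, 8.63 and 10.9 in YH1 and YH2, and 14.5 and 12.3 in YL1 and YL2. Its TH libraries were again the highest, its YH libraries the lowest, and limma gave 1.03 (SE 0.23, adjusted p 0.139) in TH vs. YH and 0.68 (SE 0.23, adjusted p 0.347) in TH vs. TL. Both were smaller with equal FPKM sums, at 0.099 and 0.085.

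The abundant ER chaperones moved less. HSPA5 (ENSSSCG00000005601, chromosome 1, 299754094 to 299758545), known as BiP and the central HSP70 of the ER, was at 126 and 147 FPKM in TH1 and TH2, 101 and 105 in TL1 and TL2, 72.8 and 120.5 in YH1 and YH2, and 122 and 97.5 in YL1 and YL2. TH was above the rest, and the YH libraries differed by more than the group means of TH and TL did. HSP90B1, the HSP90 of the ER, was at 149 and 117 FPKM in TH1 and TH2, 116 and 110.4 in TL1 and TL2, 93.8 and 108 in YH1 and YH2, and 149 and 109.5 in YL1 and YL2, and its TH and YL libraries overlapped. Over the 10 ER genes the median log2 fold change was 0.46 in TH vs. YH (8 of 10 higher) and 0.41 in TH vs. TL (9 of 10 higher), and with equal FPKM sums -0.35 and -0.13, which is 0.15 and 0.14 above the median of all tested genes. Without TH1 the 0.46 was 0.21 (10 of 10 higher), and without YH1 it was 0.23 (7 of 10 higher). In YH vs. YL it was -0.26, with 2 of 10 higher, and leaving out single libraries gave -0.14 without YH1, -0.15 without YL1, -0.16 without YL2 and -0.43 without YH2.

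**Figure D3:**
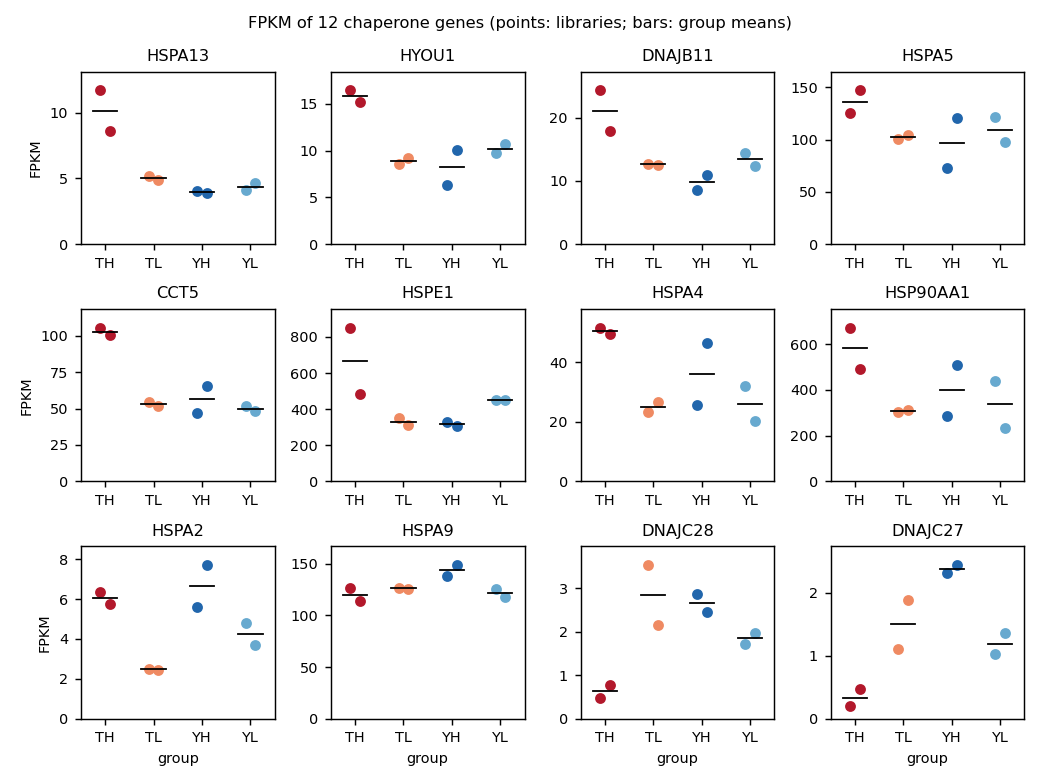
FPKM (vertical axes, each from 0) of 12 genes in the 4 groups (horizontal axes), with a point per library and a bar at the group mean of 2 libraries. HSPA13, HYOU1, DNAJB11, HSPA5, CCT5, HSPE1 and HSPA4 have both TH points above all others on FPKM as deposited, which holds for none of them with equal FPKM sums, HSPA2 is lowest in TL, and DNAJC28 and DNAJC27 are lowest in TH.

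The 8 subunits of CCT, which assemble into 1 ring complex, were higher in TH than in TL and YH with the exception of CCT6A on FPKM as deposited, but not with equal FPKM sums, which moved the median of all tested genes to -0.27 and -0.50. CCT5 (ENSSSCG00000024126, scaffold GL896487.1, 1276 to 10088) was at 106 and 100.3 FPKM in TH1 and TH2, 54.5 and 51.5 in TL1 and TL2, 46.7 and 65.8 in YH1 and YH2, and 52.0 and 48.0 in YL1 and YL2. The gap between TH and every other library was wider than the spread within any group. Its log2 fold change was 0.88 (SE 0.23, limma adjusted p 0.176) in TH vs. YH and 0.94 (SE 0.23, adjusted p 0.248) in TH vs. TL, and in TH vs. YH it turned to -0.09 with equal FPKM sums.

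CCT8 (ENSSSCG00000026761, chromosome 13, 202710193 to 202726027) was at 124 and 106 FPKM in TH1 and TH2, 63.8 and 65.7 in TL1 and TL2, 70.4 and 90.0 in YH1 and YH2, and 75.2 and 57.6 in YL1 and YL2. TCP1, the gene of the alpha subunit (ENSSSCG00000004048, chromosome 1, 9389097 to 9411773), was at 73.1 and 56.1 FPKM in TH1 and TH2, 43.3 and 43.8 in TL1 and TL2, 33.9 and 47.9 in YH1 and YH2, and 38.5 and 29.1 in YL1 and YL2. For these, as for CCT3, CCT5 and CCT7, both TH libraries were above all others, whereas CCT2 and CCT4 were at similar levels in TH and YH2. limma gave CCT8 0.82 (SE 0.24, adjusted p 0.305) in TH vs. TL, which was 0.19 with equal FPKM sums, and TCP1 0.66 (SE 0.27, adjusted p 0.301) in TH vs. YH, which turned to -0.30 with equal FPKM sums. The median of the 8 genes was 0.46 in TH vs. YH and 0.54 in TH vs. TL, with 7 of 8 higher in each, which is 0.49 and 0.56 above the median of all tested genes. With equal FPKM sums it was -0.49 with 0 of 8 higher and -0.07 with 2 of 8 higher, which is 0.010 and 0.20 above it. Without TH1 it was 0.32 and 0.42, and without YH1 it was 0.22 in TH vs. YH.

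The balance between subunits held across libraries for 7 of the 8. TCP1 was the lowest of the 7 in every library, CCT7 the highest in 6 libraries (CCT8 in TH2, CCT2 in YL2), and the highest of the 7 was 1.74 to 2.29 times the lowest. CCT6A, the zeta subunit, was listed far below: 4.77 and 13.3 FPKM in TH1 and TH2, 9.44 and 10.1 in TL1 and TL2, 7.99 and 19.0 in YH1 and YH2, and 8.89 and 9.74 in YL1 and YL2. The median of the other 7 was 4.07 to 19.9 times its level, although the complex holds each subunit in equal number. How far the gene model on Sscrofa10.2 sets this value was not tested.

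**Figure D4:**
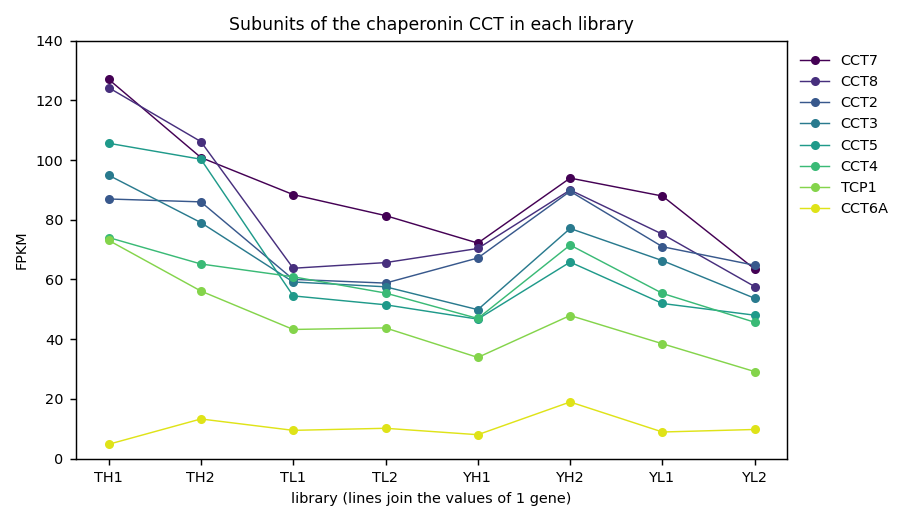
FPKM (vertical axis) of the 8 CCT genes in the 8 libraries (horizontal axis), with a line for each gene. The lines of 7 genes run nearly in parallel between 29.1 and 127 FPKM, highest in TH1, TH2 and YH2 on FPKM as deposited, and CCT6A lies below them all at 4.77 to 19.0 FPKM.

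The mitochondrial chaperonin pair is coded by neighboring genes on chromosome 15, HSPD1 at 112534189 to 112547852 and HSPE1 at 112548609 to 112550291, with 756 bases between them. HSPE1 (ENSSSCG00000016078), the lid protein HSP10, was at 851 and 483 FPKM in TH1 and TH2, 350.1 and 311 in TL1 and TL2, 331 and 309 in YH1 and YH2, and 452 and 452 in YL1 and YL2. HSPD1 (ENSSSCG00000016077), the barrel protein HSP60, was at 145 and 119 FPKM in TH1 and TH2, 93.4 and 93.6 in TL1 and TL2, 91.3 and 96.4 in YH1 and YH2, and 111 and 161 in YL1 and YL2. On FPKM as deposited both genes were higher in TH and YL than in TL and YH, and TH1 stood far above TH2 for HSPE1. For HSPD1 the highest library was YL2, the one with kidney RNA.

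HSPE1 had a log2 fold change of 1.0 (SE 0.32, limma adjusted p 0.225) in TH vs. YH and 0.96 (SE 0.32, adjusted p 0.337) in TH vs. TL, and with equal FPKM sums these were 0.015 and 0.32. Without TH2 the 1.0 was 1.41, and the median of the pair in TH vs. YH went from 0.74 to 0.47 without TH1. The interaction was 1.45 (SE 0.46, adjusted p 0.364), the TH to TL difference being positive and the YH to YL difference -0.50. For HSPD1 the interaction was 1.0 (SE 0.36, limma adjusted p 0.407), and 1.27 without YL1, which leaves YL2 alone. These interactions were 0.80 and 0.36 with equal FPKM sums. The ratio of HSPE1 to HSPD1, both per length, was 5.86 and 4.05 in TH1 and TH2, 3.75 and 3.32 in TL1 and TL2, 3.63 and 3.21 in YH1 and YH2, and 4.08 and 2.80 in YL1 and YL2, with TH2 and YL1 at like values. HSPA9 (mortalin), the HSP70 of the mitochondrial matrix, was among the members of least spread: 126 and 114 FPKM in TH1 and TH2, 127 and 126 in TL1 and TL2, 139 and 149 in YH1 and YH2, and 126 and 118 in YL1 and YL2. Its YH libraries lay above all others. Over the 7 chaperones of the mitochondrion, the pair and HSPA9 among them, the median log2 fold change was -0.19 in TH vs. YH (3 of 7 higher). In TH vs. TL it was 0.01 (4 of 7 higher).

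Among cytosolic chaperones the spread within groups was wide. HSP90AA1 (ENSSSCG00000002535, chromosome 7, 129758771 to 129761205), the stress-inducible HSP90, was at 673 and 491 FPKM in TH1 and TH2, 303 and 314 in TL1 and TL2, 286 and 511 in YH1 and YH2, and 441 and 232 in YL1 and YL2. TH was above TL in both libraries and overlapped YH, with a log2 fold change of 0.90 (SE 0.42, limma adjusted p 0.480) in TH vs. TL. With equal FPKM sums the median of HSP90AA1 and HSP90B1 in TH vs. TL went from 0.56 to -0.07, which is 0.20 above that of all tested genes. HSPA4 (ENSSSCG00000014292, chromosome 2, 140866276 to 140911654), an exchange factor of cytosolic HSP70, was at 51.6 and 49.3 FPKM in TH1 and TH2, 23.2 and 26.7 in TL1 and TL2, 25.7 and 46.4 in YH1 and YH2, and 32.1 and 20.1 in YL1 and YL2. Here TH exceeded the other 6 libraries, YH2 came close, and the log2 fold change was 0.99 (SE 0.34, limma adjusted p 0.350) in TH vs. TL and 0.36 with equal FPKM sums. HSPH1, the stress-inducible HSP110, was at 11.5 and 12.5 FPKM in TH1 and TH2, 8.28 and 13.1 in TL1 and TL2, 8.13 and 17.3 in YH1 and YH2, and 14.6 and 7.70 in YL1 and YL2, with all 4 groups overlapping.

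HSPA2 was higher at 3000 m than at 100 m in both breeds on FPKM as deposited, and limma called neither difference. HSPA2 (ENSSSCG00000002274, chromosome 7, 94987617 to 94990126), an HSP70 best known from testis, was at 6.35 and 5.77 FPKM in TH1 and TH2, 2.51 and 2.46 in TL1 and TL2, 5.62 and 7.73 in YH1 and YH2, and 4.79 and 3.70 in YL1 and YL2. Every library from 3000 m was above every library from 100 m, and TL was below all others. Such a split by altitude held for 2 of the 57 chaperones and 194 of the 11913 tested genes. With equal FPKM sums the order was lost, with TH1 below TL2 and YH1 below YL2. limma gave 1.02 (SE 0.23, adjusted p 0.217) in TH vs. TL, 0.54 (SE 0.23, adjusted p 0.784) in YH vs. YL, and 0.78 (SE 0.16, adjusted p 0.384) for the altitude average. The TH vs. TL value was 0.36 and the altitude average 0.41 with equal FPKM sums, and without YH2 the YH vs. YL value was 0.35. The interaction was 0.47 (SE 0.32, adjusted p 0.599), so the size of the difference was not shown to depend on breed. HSPA12A, a distant HSP70 relative, was at 8.5 FPKM in YL2, the library with kidney RNA, and at 0.470 to 1.13 FPKM in the other 7.

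For both heat shock factors the TH libraries lay above the TL libraries on FPKM as deposited, and limma called neither gene. HSF1 was at 38.8 and 28.1 FPKM in TH1 and TH2, 27.0 and 26.6 in TL1 and TL2, 25.4 and 25.4 in YH1 and YH2, and 33.6 and 23.1 in YL1 and YL2, and YL1 lay above TH2. HSF2 was at 11.6 and 8.73 FPKM in TH1 and TH2, 8.65 and 7.27 in TL1 and TL2, 7.26 and 8.87 in YH1 and YH2, and 8.21 and 5.42 in YL1 and YL2. TH1 was the highest library for both genes, and their log2 fold changes in TH vs. YH were 0.37 (SE 0.26, limma adjusted p 0.511) and 0.29 (SE 0.26, adjusted p 0.602). Their median was 0.33 in TH vs. YH and 0.30 in TH vs. TL, against 0.22 and 0.28 over the 57 genes. In TH vs. TL the lower limma adjusted p was 0.709.

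The DNAJ classes moved in both directions. DNAJA4 (ENSSSCG00000001759, chromosome 7, 53214359 to 53228751), a J-domain protein of the cytosol and the most abundant DNAJ gene by mean, was at 115 and 119 FPKM in TH1 and TH2, 57.4 and 73.6 in TL1 and TL2, 76.3 and 163 in YH1 and YH2, and 83.3 and 30.8 in YL1 and YL2. Its altitude average was 0.98 (SE 0.37, limma adjusted p 0.623) and 0.63 without YL2, and the libraries of YH and YL overlapped. DNAJB1, the main stress-inducible J-domain partner of HSP70, went the other way, at 7.10 and 10.7 FPKM in TH1 and TH2, 11 and 16.0 in TL1 and TL2, 7.59 and 11.9 in YH1 and YH2, and 13.5 and 25.9 in YL1 and YL2. Its altitude average was -0.73 (SE 0.28, limma adjusted p 0.628) and -0.50 without YL2, the library with kidney RNA. TH was below TL and YH below YL.

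DNAJC24, a J-domain protein of diphthamide synthesis, was at 5.99 and 7.51 FPKM in TH1 and TH2, 4.83 and 4.40 in TL1 and TL2, 3.31 and 2.20 in YH1 and YH2, and 3.23 and 4.36 in YL1 and YL2. Tibetan libraries were above Yorkshire libraries at both altitudes, with 1.05 (SE 0.25, limma adjusted p 0.143) in TH vs. YH and 0.65 (SE 0.17, adjusted p 0.192) for the breed average, and these were 0.26 and 0.083 with equal FPKM sums, and 1.79 and 1.01 on scaled reads. DNAJC14 was at 15.4 and 13.8 FPKM in TH1 and TH2, 7.81 and 8.81 in TL1 and TL2, 11.2 and 13.7 in YH1 and YH2, and 11.4 and 11.1 in YL1 and YL2. It was lowest in TL and highest in TH, with 0.74 (SE 0.20, adjusted p 0.268) in TH vs. TL and 0.16 with equal FPKM sums. DNAJC19, a subunit of the motor that imports proteins into mitochondria, was at 60.5 to 104 FPKM, and the groups TH and YH overlapped.

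The members with both TH libraries below all others were DNAJC genes of low level. DNAJC28 (ENSSSCG00000028192, chromosome 13, 206922279 to 206923693) was at 0.467 and 0.781 FPKM in TH1 and TH2, 3.54 and 2.15 in TL1 and TL2, 2.88 and 2.44 in YH1 and YH2, and 1.73 and 1.96 in YL1 and YL2. DNAJC27 (ENSSSCG00000008577, chromosome 3, 121005515 to 121042157), a J-domain protein with a small GTPase fold, was at 0.198 and 0.463 FPKM in TH1 and TH2, 1.11 and 1.88 in TL1 and TL2, 2.31 and 2.44 in YH1 and YH2, and 1.02 and 1.36 in YL1 and YL2. These are low levels, resting on 11 to 89 reads for DNAJC28 and 4 to 50 reads for DNAJC27, and the TH libraries did not overlap the others for either gene. limma gave DNAJC28 -1.18 (SE 0.25, adjusted p 0.121) in TH vs. YH and -1.23 (SE 0.25, adjusted p 0.197) in TH vs. TL. For DNAJC27 it gave -1.35 (SE 0.24, adjusted p 0.0929) and -0.90 (SE 0.24, adjusted p 0.271), and the pseudocount makes such differences smaller than those of the FPKM. The values were -0.84 and -0.70 for DNAJC28, and -0.85 and -0.44 for DNAJC27, with equal FPKM sums. On scaled reads they were larger, with -2.08 for DNAJC28 in TH vs. TL, and -2.62 and -2.06 for DNAJC27. DNAJC12, of which a role in the folding of aromatic amino acid hydroxylases is known, was the only other member with both TH libraries below all others, at 1.72 and 1.27 FPKM against 1.97 to 3.90.

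DNAJC5G had the largest difference of all 57 and the thinnest support. It is listed on the scaffold GL895079.1 at 11227 to 11598, and its FPKM of 2.65 to 77.2 rests on 1 to 13 reads per library. YH was highest, with 42.6 and 77.2 FPKM from 8 and 13 reads. YL1 and YL2 had 2 and 1 reads. The size of the log2 fold change of 3.17 in YH vs. YL (SE 0.71, limma adjusted p 0.624) is uncertain at this depth, and counting error was not tested.

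Counted over all groups, both TH libraries lay above the other 6 in 16 chaperones (28.1%, against 10.1% of all tested genes) and below them in 3 (5.26%, against 8.06%). Of the 37 chaperones that averaged at least 10 FPKM, 13 lay above (against 14.9% of tested genes at that level) and 0 below (against 7.31%). The 16 were HSPA5, HSPA13, HSPA4, HYOU1, HSPE1, TCP1, CCT3, CCT5, CCT7, CCT8, DNAJA2, DNAJB11, DNAJC2, DNAJC14, DNAJC24 and DNAJC21, the last of which was named after its values were seen. Both TL libraries lay above the other 6 in 0 of the 57 (against 4.91%), and 6 had both below (10.5%, against 3.86%): HSPA2, CCT2, DNAJB14, DNAJC3, DNAJC7 and DNAJC14. With other scalings the 16 became 10 by median-ratio factors (against 7.81% of all tested genes), 3 with equal FPKM sums outside the mitochondrial genome (4.02%) and 0 with equal FPKM sums (0.336%). Without TH1, TH2 alone was highest in 17 (against 16.7%), without TH2 TH1 alone in 26 (27%), and without YH2 both TH libraries in 23 (11.9%). Both TH libraries were also above the other 6 in 4 of 5 atrial and 3 of 5 blood markers, and the part of these in the count was not tested.

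The libraries of 1 group also differed from each other. Of the 57 genes 42 were higher in YH2 than in YH1 (73.7%, against 61.9% of all tested genes), and 14 (24.6%) were higher by more than 0.5 on the log2(FPKM + 1) scale while 0 were lower by that much, against 8.74% and 4.14% of all tested genes. The median difference was 0.83 for HSP110 (3 of 3 higher in YH2), 0.53 for DNAJA, 0.52 for HSP90 and 0.49 for CCT (8 of 8 higher), against 0.22 for HSP70, 0.17 for DNAJB, 0.06 for DNAJC, -0.01 for HSPD1 with HSPE1, and 0.08 over all tested genes. Inside YL the medians of YL2 against YL1 were -0.68 for HSP90, -0.65 for HSP110, -0.52 for the heat shock factors, -0.32 for DNAJA and -0.29 for CCT, against 0.04 over all tested genes. They were -0.26 for DNAJB, -0.10 for HSP70, 0.02 for DNAJC and 0.27 for HSPD1 with HSPE1. Inside TH, 3 of the 22 genes outside DNAJ were higher in TH2 than in TH1 (13.6%, against 48.5% of all tested genes). Their median difference was -0.20, against -0.01 over all tested genes. Over the 57 genes the median size of the difference inside TH was 0.28, against 0.40 over all tested genes. TL1 and TL2 differed least, with a median size of 0.10 over the 57 genes. For the CCT genes the difference inside YH touched TH vs. YH, where the median was 0.46 with all libraries and 0.22 without YH1 on FPKM as deposited.

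**Figure D5:**
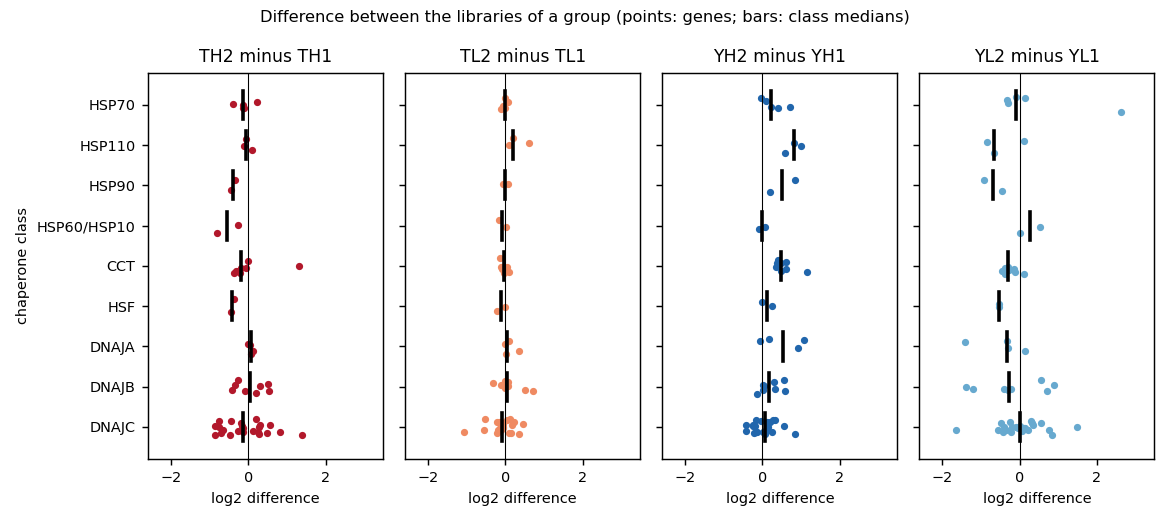
Log2 difference of the second minus the first library of each group on the log2(FPKM + 1) scale (horizontal axis) by class (vertical axis), with a point per gene and a black bar at the class median. YH2 is above YH1 in all 8 CCT and all 3 HSP110 genes, whereas most points of TL lie close to 0, with 3 above 0.5 and 3 below -0.5.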

How the data were processed

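Heart RNA of 8 libraries was sequenced as 100-bp paired-end reads. Per the methods and the submitters' processing notes, the authors aligned reads to Sscrofa10.2 with TopHat2 2.0.9 and Bowtie 0.12.5, used Cufflinks for FPKM, and DESeq 1.10.1 for their DEGs. The deposited table lists FPKM per library and, beside it, a signal made by the authors from reads on each gene, with 1 scale factor for each library. Dividing this signal by its smallest step gave whole numbers (tolerance 0.1) for 99.8% to 99.9% of low values, and these gave the reads quoted as depth. The 8 columns of group means and ratios deposited with them were not used. For YL the sample descriptions point to the file of TL, and YL was taken by title, breed and column name.

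Groups were compared with limma 3.58.1 (R 4.3.3; trend on the mean) on log2(FPKM + 1) of all 8 libraries. Tested were 11913 genes, those that reached 1 FPKM in 2 or more libraries, with Benjamini-Hochberg adjustment over them. Calls needed a log2 fold change over 1 in size and an adjusted p under 0.01. The pseudocount of 1 understates differences of low genes. The labels do not say that libraries share animals across groups, and the p-values measure the spread between pools. The members and lists were chosen with earlier results of these data known. Genes of the HSP, CCT and HSF classes could all be named. Of the DNAJ genes the 12 of highest mean and, per pairwise comparison, the 3 largest differences each way among those whose libraries do not overlap were named, and of other lists the 3 of highest mean. The fit was tested on simulated data (11913 genes, 200 changed per size): it made 2 false calls at a log2 fold change of 2 and 0 at 3. Alternatives were another pseudocount (0.1), other filters, scalings, thresholds and moderation, a term for the replicate number, the libraries compared alone, and each library left out. The scaled reads, and the scalings and left-out libraries for counts of genes that do not overlap, were chosen after seeing the data. Count-based tests (2 planned tools) were not run, because the deposited values are scaled and not all whole. The tables came from pandas 2.3.3 and numpy 2.4.6, and the figures from matplotlib 3.10.9, in Python 3.11.15.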

Additional observations from a re-analysis of the deposited data

How the results depend on the processing

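The count of 0 called chaperones held in all 7 comparisons with a pseudocount of 0.1, without a filter, with a mean of at least 10 FPKM, without trend, with median-ratio factors, with equal FPKM sums outside the mitochondrial genome, with scaled reads and at an adjusted p under 0.05. At a log2 fold change over 1 with an unadjusted p under 0.01, limma gave 5 in TH vs. YH (against 4.06% of all tested genes), 2 in TH vs. TL (against 2.57%), 1 in YH vs. YL (against 0.839%), 1 for the altitude average (against 0.806%) and 2 for the interaction (against 2.85%). With an FPKM sum of 1000000 per library it called 1 in YH vs. YL (DNAJC5G, 2.96; 0.579% of all tested genes were called). Leaving out each library gave 0 to 1 in TL vs. YL, YH vs. YL and the altitude average, the 1 being HSPA12A without YL1, which leaves YL2 alone and in which 2.56%, 2.56% and 1.39% of all tested genes were called. Counts of chaperones whose libraries do not overlap moved more. In TH vs. YH, 25 higher and 9 lower became 0 higher and 13 lower with equal FPKM sums (against 1.15% and 38.7% of all tested genes), and 12 higher and 5 lower with equal sums outside the mitochondrial genome (14.5% and 15.1%). In TH vs. TL, 32 higher became 0 and 18 under these scalings (2.05% and 13.6%), and 7 lower became 11 with median-ratio factors (28.9%). In TL vs. YL, 8 higher and 13 lower became 4 and 19 with median-ratio factors (19.7% and 19.4%), 2 and 4 with equal FPKM sums (6.88% and 10%), and 3 and 1 with equal sums outside the mitochondrial genome (14.8% and 3.5%). In YH vs. YL, 9 higher and 10 lower became 4 and 0 (10.3% and 1.67%) and then 5 and 0 (11.4% and 1.41%) under the last 2. Leaving out each library gave 27 to 37 higher and 12 to 18 lower in TH vs. YH (against 31.7% to 42.6% and 33.3% to 45.1% of all tested genes), 14 to 32 and 14 to 28 in TL vs. YL (31.1% to 45.7% and 25% to 42.8%), 34 to 38 and 9 to 15 in TH vs. TL (30.6% to 42.5% and 32.3% to 45.6%), and 11 to 28 and 13 to 24 in YH vs. YL (27.9% to 43.9% and 21.4% to 39.8%), since a lone library overlaps less often. With equal FPKM sums the members higher went from 38 to 5 in TH vs. YH and from 41 to 16 in TH vs. TL, while the median of all tested genes moved to -0.50 and -0.27. Among the named genes, each in the comparisons where it had an unadjusted p under 0.05 by limma, 7 log2 fold changes changed sign, all with equal FPKM sums: TCP1 (-0.30) and CCT5 (-0.087) in TH vs. YH, CCT2 (-0.080) and DNAJC7 (-0.022) in TH vs. TL, and TCP1 (-0.13), CCT5 (-0.17) and DNAJB11 (-0.13) in the breed average. This scaling moved the median of all tested genes in the breed average to -0.39, so the changes of sign are not particular to these genes. The causes were not tested. With the replicate block the count of called chaperones was 0 in all 7 comparisons; same-numbered libraries did not deviate together (r across genes of -0.08 to 0.12 between groups), so the numbers do not pair them. The count-based tests were not run. Depth limits DNAJC5G, DNAJC27, DNAJC28, DNAJC12, DNAJC25 and DNAJC30, with fewer than 100 reads in each library.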

Other observations

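The helpers of these chaperones were taken from lists outside the naming rule, and limma called no gene of the 5 lists in the pairwise comparisons. Of 13 tested genes for ER folding and stress, 9 were higher in TH vs. YH (against 47.5% of all tested genes) and 11 in TH vs. TL (against 48%), with 5 at an unadjusted p under 0.05 in each (against 16.2% and 11.3%) and medians of 0.60 and 0.56 on FPKM as deposited. CALR, a lectin chaperone of the ER, was at 265 and 184 FPKM in TH1 and TH2, 128 and 118 in TL1 and TL2, 89.6 and 135 in YH1 and YH2, and 133 and 191 in YL1 and YL2. XBP1, a transcription factor of the unfolded protein response, was at 114 and 96.9 FPKM in TH against 51.4 to 92.7 elsewhere. The 9 nucleotide exchange factors had medians of -0.11 in TH vs. YH (4 of 9 higher) and 0.09 in TH vs. TL (6 of 9 higher), and among them BAG1 was at 59.4 and 51.4 FPKM in TH against 21.7 to 32.5 in the other 6 libraries, with a log2 fold change of 1.03 in TH vs. YH (adjusted p 0.159) and 1.17 in TH vs. TL (adjusted p 0.213). Medians were 0.15 and 0.19 for 15 HSP90 co-chaperones and 0.35 and 0.29 for 7 prefoldin and CCT helper genes. The 13 genes of mitochondrial import and proteases had medians of -0.22 and -0.23, with 3 at an unadjusted p under 0.05 in each, all of them lower (against 16.2% and 11.3% of all tested genes at that p in either direction).

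Immediate early genes, which respond quickly to many stimuli, stood at higher levels in Tibetan pigs. All 9 tested were higher in TH vs. YH (against 47.5% of all tested genes; median log2 fold change 2.16, 8 at an unadjusted p under 0.05, against 16.2%) and in TL vs. YL (against 51.6%; median 2.22, 7 at that p, against 8.94%). The median was 0.54 in TH vs. TL, and 0.03 in YH vs. YL. FOS was at 53.8 and 85.5 FPKM in TH1 and TH2, 50.9 and 42.0 in TL1 and TL2, 3.4 and 5.91 in YH1 and YH2, and 4.30 and 5.98 in YL1 and YL2, with an adjusted p of 0.00552 in the breed average.

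Some chaperones carry another name in the table or none. HSP90AB1, listed as HSPCB, was at 113 and 98.5 FPKM in TH1 and TH2, 77.9 and 67.6 in TL1 and TL2, 73.3 and 91.7 in YH1 and YH2, and 99.9 and 61.4 in YL1 and YL2. HSPA8, the constitutive HSP70 of the cytosol, was at 17 and 47.7 FPKM in TH1 and TH2, 50.7 and 53.7 in TL1 and TL2, 40.5 and 69.8 in YH1 and YH2, and 50.2 and 28.6 in YL1 and YL2, so TH1 was the lowest library. HSPA1L, on a scaffold, was at 245 and 145 FPKM in TH and 192 to 407 in the other 6; reads of its close copies may be counted there, and its value is uncertain. DNAJC22 was at 8.53 FPKM in YL2, the library with kidney RNA, and at no more than 0.454 elsewhere. DNAJC9 was at 1.09 to 1.98 FPKM, with log2 fold changes of 0.32 in TH vs. YH and -0.02 in TH vs. TL.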
